A study of Mus musculus with 6 samples.

Results

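The death receptor and necroptosis genes examined here were Fas, Tnfrsf10b, Fadd, Casp8, Cflar, Bid, Ripk1, Ripk3 and Mlkl. They were chosen by name for their roles in extrinsic apoptosis and necroptosis, with earlier results of these data known. They were 9 of the 55421 genes in the count table, and all 9 had enough counts to be tested. RNA-seq was carried out on DM1 myoblasts on day 4 of differentiation. DM1, myotonic dystrophy type 1, is caused by expanded CTG repeats, and the cells modelled it as C2C12 mouse myoblasts stably transfected with a plasmid that placed the expanded repeats in the 3' UTR of GFP. Every library came from such CUG200 cells. The control group (n = 3) carried the empty pLL4.0 vector, and the miR-322/-503 group (n = 3) carried the same vector with a fragment encoding both microRNAs, with drug selection used to make stable lines. The methods describe stably selected lines, and neither they nor the labels give more than 1 line per group. The effect of the microRNAs and a difference between the lines therefore cannot be told apart. The labels give replicate numbers but do not say whether the libraries came from separate cultures, so the p-values measure the spread between these libraries.

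Death receptors are surface proteins of the TNF receptor superfamily. On binding their ligand they recruit the adaptor FADD and the initiator caspase CASP8, which starts apoptosis either directly through executioner caspases or through cleavage of BID and release of mitochondrial factors. Where CASP8 is not active, the kinases RIPK1 and RIPK3 can form a complex that phosphorylates MLKL, which then breaks the plasma membrane, a death called necroptosis. In skeletal muscle, CASP8 and its inhibitor CFLAR are expressed by myoblasts, and necroptosis has been studied in dystrophic and injured fibres.

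The overexpressed microRNAs are shown because their seed (bases 2 to 8, in capitals) decides which 3' UTRs they can pair with. Both mature sequences are from RefSeq, build GRCm38.p6, and are encoded on chromosome X, minus strand, at chrX:53054306-53054327 for miR-322-5p and chrX:53054027-53054049 for miR-503-5p.
mmu-miR-322-5p: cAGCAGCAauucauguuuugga
mmu-miR-503-5p: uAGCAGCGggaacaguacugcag
The seeds share their first 6 bases and differ in the last. The sense strand of each gene's longest annotated 3' UTR was searched for TGCTGCT, the match to the miR-322 seed, and for CGCTGCT, the match to the miR-503 seed. The miR-322 match was in 24.4% of 13416 tested genes with a 3' UTR and in 2 of the 9 genes, Fadd and Ripk1. The miR-503 match was in 4.87% of the tested genes and in 0 of the 9. The 3 windows with a match, in capitals, are given in sense orientation from GRCm38, and all lie in 3' UTR exons.
Fadd, chr7:144578351-144578373, minus strand: agcatcaattcctccTGCTGCTa
Ripk1, chr13:34033450-34033472, plus strand: ctgtcattgcagagcTGCTGCTg
Ripk1, chr13:34035178-34035200, plus strand: tgttggcatctcctgTGCTGCTa
The shared 6-base match GCTGCT, which lies inside both longer matches, was in 45.2% of the tested genes and in 4 of the 9. It occurred 1 time in Tnfrsf10b, 1 time in Fadd, 4 times in Cflar and 4 times in Ripk1. Fas (448 bases of 3' UTR), Casp8 (749), Bid (1427), Ripk3 (202) and Mlkl (228) held none of these letters, against a median 3' UTR length of 1174 bases over the tested genes.

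The libraries held between 73532084 and 92157388 estimated counts, which corresponds to about 18383021 to 23039347 read pairs. Values are given in CPM, counts per 1000000 counts of the normalized library. A gene is said to have risen or fallen where its p from the quasi-likelihood test of edgeR, adjusted over all genes by Benjamini-Hochberg, was under 0.05. Every adjusted p in the text is from this test unless another is named. Over all 18140 tested genes, 28.8% passed, 13.2% higher and 15.5% lower with miR-322/-503. The 10 muscle identity genes were all detected, with a summed level of 4550 to 4920 CPM in the control and 5790 to 6020 CPM with miR-322/-503, and 6 of them rose while 1, Myog, fell. The 8 immune markers summed to 3.64 to 5.08 CPM in the control and 3.96 to 4.35 CPM with miR-322/-503, with Adgre1 and Cd3e at 0 in every library. Of the 3 immune markers with enough counts to be tested, 1, Lyz2, fell (edgeR adjusted p = 0.00289), with 141, 78 and 88 counts in the control and 0, 0 and 5 with miR-322/-503. The 6 endothelial and adipocyte markers summed to at most 0.0606 CPM in the control and 0.226 CPM with miR-322/-503, with Adipoq and Fabp4 at 0. The muscle genes therefore moved with the groups, and their part in the results for the death genes was not tested. In bulk RNA, fewer cells expressing a gene and less of its RNA per cell cannot be told apart. The precursor genes Mir322 (1, 7 and 2 counts in the control, 17, 0 and 3 with miR-322/-503) and Mir503 (1, 1 and 2 against 6, 4 and 5) had too few counts to check the overexpression.

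Of the 9 genes, 3 fell with miR-322/-503 (Fas, Tnfrsf10b and Ripk3), 0 rose and 6 did not pass the edgeR test. Over all tested genes 15.5% fell. At an unadjusted p under 0.05, 1 gene (Cflar) was higher and 4 were lower, and DESeq2 called 0 higher and 4 lower. Fas and Ripk3 also fell by more than 1 on the log2 scale, as did 5.29% of tested genes, while 4.59% rose by more than 1. The groups did not overlap for 7 of the 9 genes, 6 of them lower and 1 higher with miR-322/-503, against 45.1% of tested genes in either direction, 23.5% lower and 21.6% higher. The median log2 fold change of the 9 genes was -0.12, and that of all tested genes was -0.01. The genes that fell were both receptors and 1 of the 3 necroptosis genes, while the caspase, its inhibitor, RIPK1 and MLKL transcripts differed by less than 0.2 on the log2 scale.

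**Figure D1:**
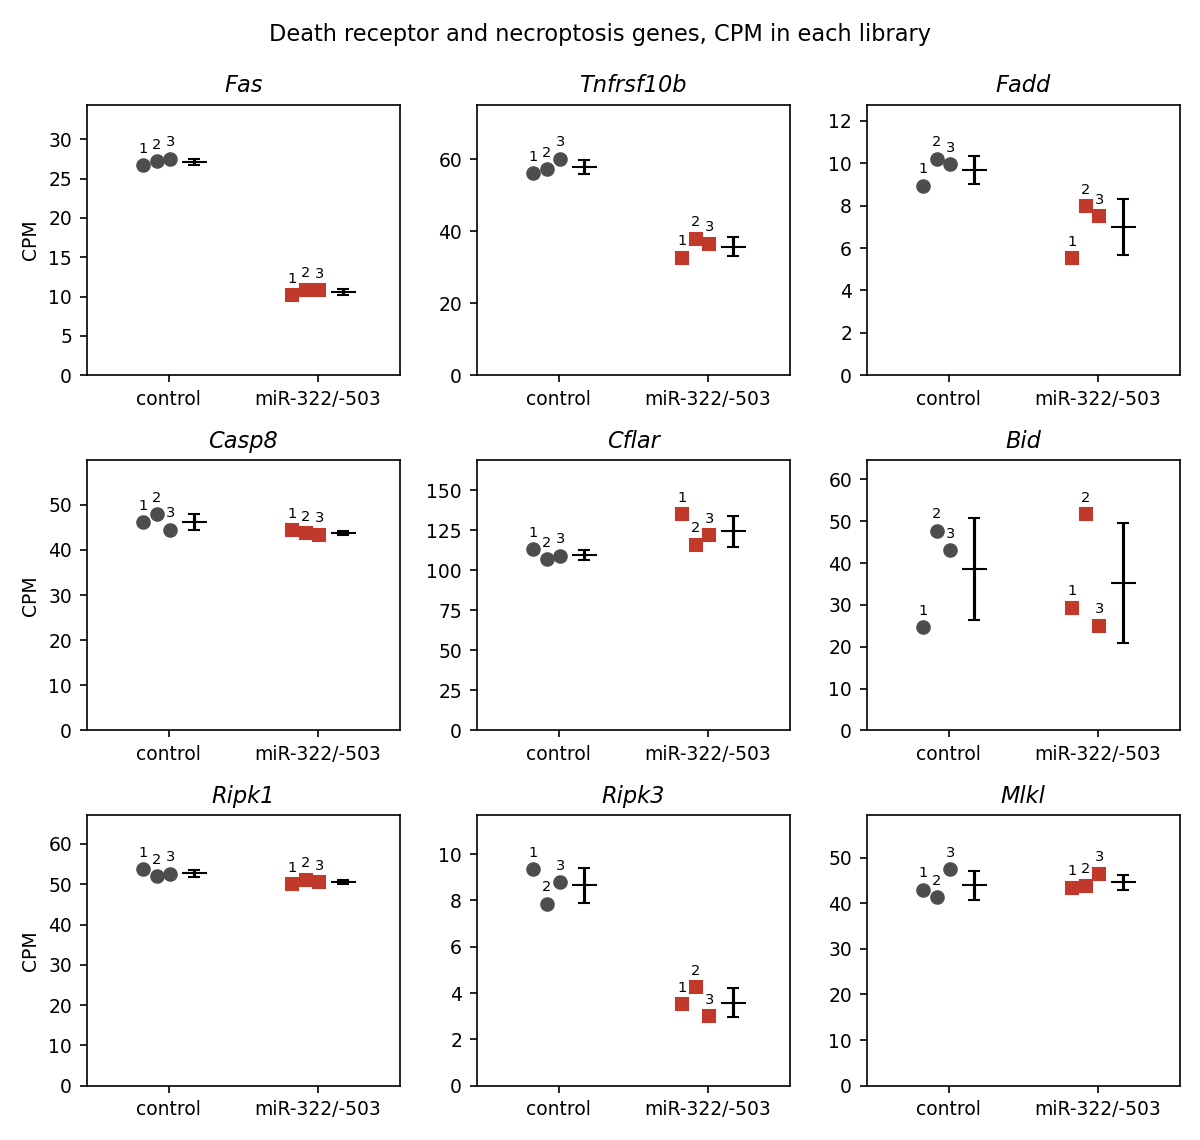
CPM of each gene in the 3 control libraries (grey circles) and the 3 miR-322/-503 libraries (red squares), numbered by replicate, with the group mean and SD as a bar. All axes start at 0. Fas, Tnfrsf10b and Ripk3 sit in separate ranges in the 2 groups, and the Bid libraries spread widely in both.

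Fas encodes the receptor for Fas ligand and lies on chromosome 19 (chr19:34290666-34327772, plus strand). Its level was 26.7, 27.2 and 27.5 CPM in the control libraries and 10.2, 10.9 and 10.8 CPM in the miR-322/-503 libraries. Every miR-322/-503 library was far below every control library, and libraries within a group were close together. The mean fell from 27.1 ± 0.409 to 10.6 ± 0.34 CPM (SD, n = 3 each), a log2 fold change of -1.35 (SE 0.08, 95% interval -1.53 to -1.17, edgeR adjusted p = 1.99e-05), or 2.55-fold lower. The spread of Fas within groups, an SD of 0.0363 of log2 CPM, was smaller than that of 97.9% of tested genes.

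Tnfrsf10b encodes the mouse receptor for TRAIL, a ligand of the TNF family, and lies at chr14:69767472-69784411 on the plus strand. It stood at 56.2, 57.2 and 60.1 CPM in the control and at 32.7, 37.9 and 36.6 CPM with miR-322/-503. The groups did not overlap, and the gap between them was larger than the spread within either. The fall was smaller than that of Fas, from 57.8 ± 2.03 to 35.8 ± 2.71 CPM (SD, n = 3), with a log2 fold change of -0.69 (SE 0.07, 95% interval -0.87 to -0.52, edgeR adjusted p = 0.000429), or 1.62-fold lower.

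The ligands of these receptors were scarce. Fasl had 5 counts in 1 control library and 0 in the others, and Tnfsf10, which encodes TRAIL, had 0 counts in all 6 libraries. At 4 counts per read pair, a count of 0 allows up to 3 read pairs, or 0.126 to 0.16 CPM depending on the library, for counting error only. Tnf had 4, 7 and 8 counts in the control, all under this floor of 12, and 40, 20 and 10 with miR-322/-503, and it did not pass the test (edgeR adjusted p = 0.0652).

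Fadd encodes the adaptor that links both receptors to CASP8 and lies at chr7:144577318-144582463 on the minus strand. It was at 8.94, 10.2 and 9.94 CPM in the control and at 5.51, 7.96 and 7.5 CPM with miR-322/-503. All miR-322/-503 libraries were lower, but replicate 1 of that group stood below the other two. The log2 fold change of -0.47 (SE 0.15, 95% interval -0.83 to -0.11) did not pass the test (unadjusted p = 0.0174, adjusted p = 0.0576 by edgeR). It passed with DESeq2 (-0.46, adjusted p = 0.0348).

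Casp8, the initiator caspase, and Cflar, which encodes the catalytically inactive relative cFLIP that can block it, are neighbours on chromosome 1, at chr1:58795374-58847503 and chr1:58711508-58758884 on the plus strand. Casp8 was at 46.1, 47.9 and 44.5 CPM in the control and at 44.3, 43.7 and 43.3 CPM with miR-322/-503. The lowest control library lay just above the highest miR-322/-503 library, so the ranges barely parted. The log2 fold change was -0.08 (95% interval -0.21 to 0.06, edgeR adjusted p = 0.377), which leaves room for a fall of at most 0.21. Cflar was at 113, 107 and 109 CPM in the control and at 135, 116 and 122 CPM with miR-322/-503. Its groups did not overlap, and it was the only one of the 9 genes whose miR-322/-503 libraries were all higher. The log2 fold change of 0.18 (SE 0.07, 95% interval 0.02 to 0.34) did not pass the test after adjustment (unadjusted p = 0.035, adjusted p = 0.0971 by edgeR).

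Bid encodes the BH3-only protein that CASP8 cleaves and that carries the death signal to mitochondria. It lies at chr6:120891930-120916853 on the minus strand. Its libraries held 24.7, 47.7 and 43.1 CPM in the control and 29.3, 51.7 and 25.0 CPM with miR-322/-503. Control replicate 1 and miR-322/-503 replicates 1 and 3 were low, the other three were high, and the groups overlapped. The SD within groups was 0.532 of log2 CPM, more than that of all but 2.69% of the 10065 tested genes whose mean lay between 3.59 and 124 CPM, the range of the 9 genes. The log2 fold change was -0.12 with a 95% interval of -0.88 to 0.64 (edgeR adjusted p = 0.822), an interval wide enough to hold a fall as large as that of Tnfrsf10b. The estimate turned positive without control replicate 2 (0.06) and without miR-322/-503 replicate 3 (0.07), and was -0.50 without miR-322/-503 replicate 2 and -0.36 without control replicate 1. The annotated span of Bid overlaps that of Bcl2l13 on the other strand by 913 bases, and the sources do not state whether counting used strand. Bcl2l13, at 64.5, 65.4 and 59.0 CPM against 78.3, 78.7 and 75.8 CPM, did not share the spread of Bid and rose (log2 fold change 0.30, edgeR adjusted p = 0.00768).

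Of the necroptosis genes Ripk1, Ripk3 and Mlkl, only Ripk3 passed the test. Ripk3 encodes the kinase that phosphorylates MLKL and lies at chr14:55784995-55788865 on the minus strand. It was at 9.34, 7.85 and 8.78 CPM in the control and at 3.52, 4.24 and 2.99 CPM with miR-322/-503. Every miR-322/-503 library was well below the lowest control library. The mean fell from 8.66 ± 0.754 to 3.59 ± 0.627 CPM (SD, n = 3), with a log2 fold change of -1.27 (SE 0.16, 95% interval -1.64 to -0.90, edgeR adjusted p = 0.000886), or 2.41-fold lower. Leaving out any single library kept the log2 fold change between -1.41 and -1.16, with an adjusted p of at most 0.00537.

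Ripk1 encodes the kinase shared by TNF receptor signalling and necroptosis and lies at chr13:34002363-34037147 on the plus strand. It was at 53.7, 52.0 and 52.6 CPM in the control and at 50.0, 51.1 and 50.5 CPM with miR-322/-503. The ranges did not overlap, although the difference was small. The libraries within a group were closer together than for 99.8% of tested genes, and the log2 fold change of -0.06 (SE 0.05, 95% interval -0.18 to 0.06) did not pass the test (edgeR adjusted p = 0.424). The annotated span of Ripk1 overlaps that of Serpinb6a on the other strand by 432 bases. Serpinb6a, at 269 to 338 CPM in the control and 399 to 433 CPM with miR-322/-503, rose by 0.45 on the log2 scale.

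Mlkl encodes the pseudokinase that carries out necroptosis and lies at chr8:111311797-111338177 on the minus strand. It was at 42.9, 41.3 and 47.4 CPM in the control and at 43.4, 43.8 and 46.4 CPM with miR-322/-503. The miR-322/-503 libraries lay within the control range, with a log2 fold change of 0.02 (SE 0.07, 95% interval -0.15 to 0.19, edgeR adjusted p = 0.873). The interval leaves out any change of Mlkl as large as the fall of Ripk3.

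**Figure D2:**
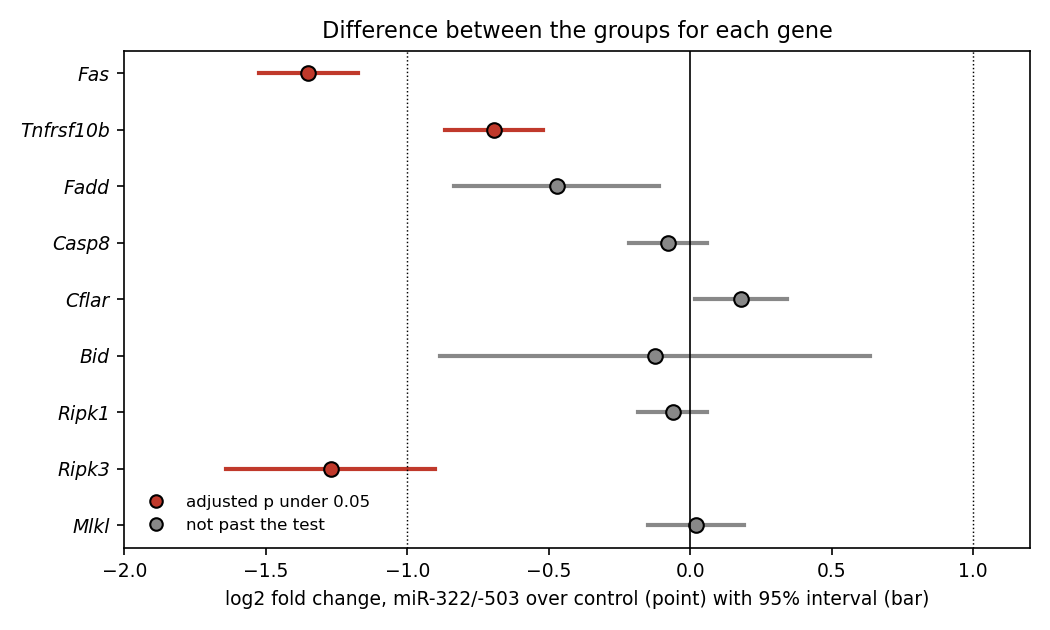
Log2 fold change of each gene, miR-322/-503 over control (points), with its 95% interval (bars), from edgeR. Red marks an adjusted p under 0.05, and dotted lines stand at -1 and 1. Fas (-1.35) and Ripk3 (-1.27) lie left of -1, Tnfrsf10b (-0.69) lies between -1 and 0, and Bid has the widest interval (-0.88 to 0.64).

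Levels of different genes were compared as TPM, transcripts per 1000000, which divides by transcript length. In the control, the 9 genes stood in the order Mlkl (42.7 ± 2.51 TPM), Cflar (41.3 ± 1.84), Fas (38.6 ± 3.17), Tnfrsf10b (35.3 ± 1.27), Bid (34.8 ± 10.3), Casp8 (33.9 ± 1.25), Ripk1 (20.4 ± 0.569), Ripk3 (10.3 ± 0.953) and Fadd (4.71 ± 0.277, SD, n = 3). The ranges of neighbours in the order from Mlkl to Casp8 overlapped, while those of Casp8, Ripk1, Ripk3 and Fadd did not. With miR-322/-503 the order was Cflar (45.8 ± 5.39 TPM), Mlkl (43.6 ± 1.15), Casp8 (34.8 ± 4.92), Bid (31.8 ± 13.3), Tnfrsf10b (21.4 ± 1.51), Ripk1 (19.5 ± 1.14), Fas (15.4 ± 1.31), Ripk3 (4.52 ± 0.721) and Fadd (3.35 ± 0.603, SD, n = 3). In that group the ranges of Mlkl and Casp8, of Ripk1 and Fas, and of Fas and Ripk3 did not overlap, and those of the other neighbours did. Fas thus moved from rank 3 among the 9 genes to rank 7. Fadd, the adaptor, had the lowest TPM in both groups. The order depended on the length used. Dividing CPM by the merged exon length of each gene put Cflar, a gene with 13 annotated transcripts, at rank 6 in the control and rank 4 with miR-322/-503 rather than 2 and 1, and Casp8 at rank 2 in both groups rather than 6 and 3. On that scale Fadd remained lowest in the control, but with miR-322/-503 Ripk3 (1.56 CPM per kb) was below Fadd (1.79 CPM per kb).

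**Figure D3:**
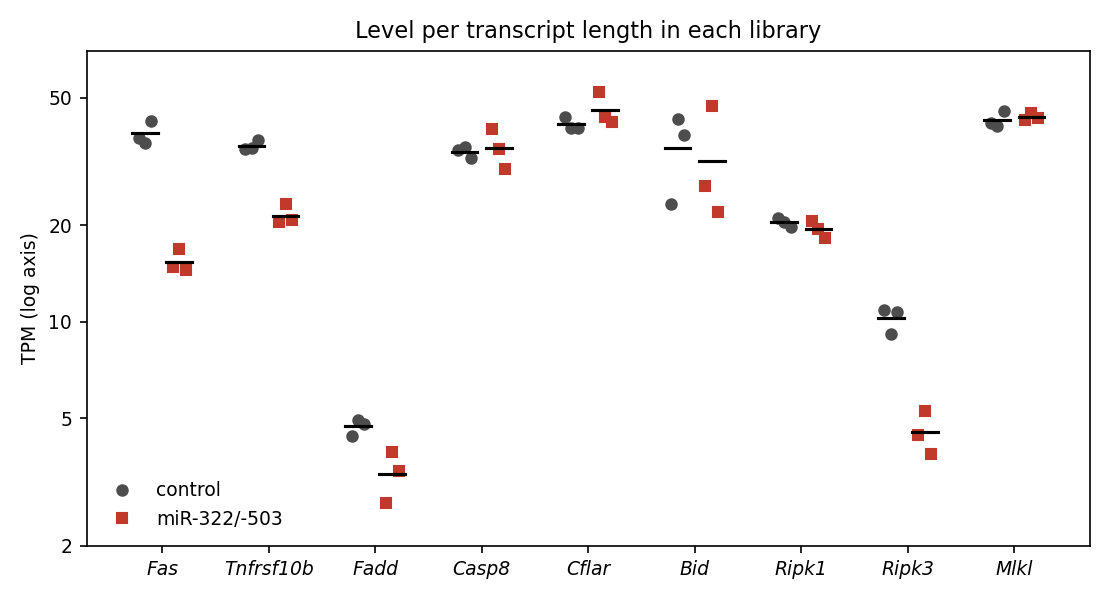
TPM of each gene on a log axis in the control (grey circles) and miR-322/-503 libraries (red squares), with the group mean as a line. Fas stands near Tnfrsf10b, Bid and Casp8 in the control (38.6 TPM) and below Ripk1 with miR-322/-503 (15.4 TPM), while Mlkl and Cflar stay at the top in both groups.

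Ratios of TPM within a library set partner genes against each other. With 3 libraries against 3, the smallest p that the two-sided exact permutation test allows is 0.1, so no ratio could pass 0.05. The ratio of Mlkl to Ripk3 was 3.83, 4.45 and 4.24 in the control and 9.62, 8.49 and 11.2 with miR-322/-503. By TPM, MLKL transcripts were thus about 4 times as abundant as those of its kinase in the control and over 8 times with miR-322/-503 in every library. The mean log2 difference was 1.22 (exact permutation p = 0.1, adjusted over the 5 ratios 0.125). The ratio of Ripk3 to Ripk1 went from 0.503 ± 0.0477 to 0.232 ± 0.0338 (SD, n = 3) and that of Ripk3 to Casp8 from 0.303 ± 0.0361 to 0.131 ± 0.0208. Neither ratio overlapped between the groups (exact permutation p = 0.1 each). The ratio of Fas to Fadd went from 8.22 ± 0.761 to 4.67 ± 0.691, also without overlap (exact permutation p = 0.1). The ratio of Cflar to Casp8, inhibitor over caspase, was 1.27, 1.15 and 1.24 in the control and 1.31, 1.26 and 1.4 with miR-322/-503, and the groups overlapped (log2 difference 0.12, exact permutation p = 0.2). With counts per exon length in place of TPM this difference was 0.25 (exact permutation p = 0.1), and on TPM it was 0.07 without control replicate 2 or without miR-322/-503 replicate 3. Which of the 2 genes stood higher also depended on the length used. Per merged exon length Cflar (8.65 CPM per kb in the control, 9.79 with miR-322/-503) was below Casp8 (16.0 and 15.1).

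The other genes of the pathway were taken from lists of ligands, regulators and effectors. Of 17 further ligands and receptors of the TNF superfamily, 13 were tested, of which 5 fell, 2 rose and 6 did not pass, with a median log2 fold change of 0.01. The death receptor Tnfrsf25 fell from 21.1 ± 1.74 to 8.76 ± 0.586 CPM (log2 fold change -1.27, SE 0.10, edgeR adjusted p = 9.34e-05), and Tnfrsf21, also a death domain receptor, fell from 7.28 ± 1.03 to 3.06 ± 0.313 CPM (log2 fold change -1.25, SE 0.15). Tnfrsf1b, the receptor for TNF without a death domain, fell by 0.71 on the log2 scale. Tnfrsf22, a mouse decoy receptor for TRAIL, rose by 0.68, though reads may be split between it and its close relative Tnfrsf23. Tnfrsf1a, the receptor for TNF that carries a death domain, had a log2 fold change of -0.15 (edgeR adjusted p = 0.204).

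Of 25 regulators of the TNF receptor complex, which control RIPK1 by ubiquitination and phosphorylation, 24 were tested, and 5 rose, 0 fell and 19 did not pass the edgeR test, with a median of 0.01. At an unadjusted p under 0.05, 2 were lower, and DESeq2 called 1 lower. With limma on log2(TPM + 1), 2 rose in place of 5. Ikbkg, the scaffold NEMO of the IKK complex, rose from 32.5 ± 2.92 to 48.0 ± 4.77 CPM (log2 fold change 0.56, edgeR adjusted p = 0.00497). Tnfaip3, which encodes the ubiquitin-editing enzyme A20, rose by 0.41. Tab3 (0.53) and the kinase gene Ikbke (0.37) also rose, but did not pass once single libraries were left out (largest adjusted p 0.0568 for Tab3, without control replicate 1, and 0.0782 for Ikbke, without control replicate 3; Tab3 was also lost without control replicate 2, and Ikbke without control replicate 1, miR-322/-503 replicate 1 or miR-322/-503 replicate 2).

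In the BCL2 family, to which BID belongs, and the apoptosome, 2 of 19 tested genes rose and 0 fell by edgeR, with a median of 0.11. At an unadjusted p under 0.05, 4 were lower, and DESeq2 called 2 lower. Pmaip1, which encodes the BH3-only protein NOXA, was at 3.50, 2.75 and 3.16 CPM in the control and at 22.7, 11.2 and 32.1 CPM with miR-322/-503. All its miR-322/-503 libraries were higher, though they differed among themselves (log2 fold change 2.81, SE 0.36, edgeR adjusted p = 0.00107). Bmf, a further BH3-only gene, rose by 0.42, but this was lost without control replicate 1 (adjusted p = 0.0886), control replicate 2 (0.0814), miR-322/-503 replicate 1 (0.091) or miR-322/-503 replicate 2 (0.0793). Of 10 executioner caspases and substrates, 2 rose, 3 fell and 5 did not pass (median -0.16). Casp6 rose from 22.4 ± 1.9 to 30.9 ± 2.35 CPM (log2 fold change 0.46, edgeR adjusted p = 0.00982), and the caspase substrate gene Gas2 fell by 0.65 on the log2 scale (edgeR adjusted p = 0.00347).

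Of 18 other necroptosis genes, 5 rose, 2 fell and 11 did not pass, with a median of 0.18. Tlr3, a sensor of double-stranded RNA that can reach RIPK3 through TICAM1, was at 18.5, 17.2 and 24.4 CPM in the control and at 8.98, 10.5 and 12.3 CPM with miR-322/-503, and fell (log2 fold change -0.92, SE 0.17, edgeR adjusted p = 0.00563), while Tlr4 rose by 0.52. Ninj1, which encodes a protein of membrane rupture late in lytic death, rose by 0.45, and Pgam5, a mitochondrial phosphatase gene, by 0.40. The rise of Pgam5 was lost without control replicate 1 (adjusted p = 0.0524), control replicate 3 (0.0524), miR-322/-503 replicate 2 (0.0598) or miR-322/-503 replicate 3 (0.0578). Zbp1, a nucleic acid sensor upstream of RIPK3, was at 1.23 CPM in the control and 1.97 CPM with miR-322/-503 and did not pass (edgeR adjusted p = 0.0636). Of 9 tested pyroptosis genes, 2 rose and 1 fell (median 0.11). Gsdmd, the pore-forming gasdermin of pyroptosis, fell by 0.63 on the log2 scale, and Il18 rose by 0.81 and Casp12 by 0.41. Casp12 did not pass with limma on log2(TPM + 1) (0.24, adjusted p = 0.175).

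Fas and Tnfrsf10b are known targets of p53, so 18 other p53 target genes were counted. Of these, 2 rose, 7 fell and 9 did not pass, with a median of -0.16. Over all tested genes 13.2% rose and 15.5% fell. Perp fell from 4.87 ± 0.616 to 1.41 ± 0.653 CPM (log2 fold change -1.79, edgeR adjusted p = 0.00568) and Btg2 from 67.8 ± 3.66 to 27.9 ± 0.907 CPM (-1.28), while Plk2 rose by 0.63 and Pmaip1, counted above, by 2.81. The others that fell were Trp53inp1 (-0.55), Sesn1 (-0.43), Phlda3 (-0.33), Sesn2 (-0.31) and Aen (-0.27). Among those that did not pass the test were the widely used p53 reporter genes Cdkn1a and Mdm2. Cdkn1a was at 611 against 646 CPM (log2 fold change 0.08) and Mdm2 at 68.0 against 68.7 CPM (0.01). The part of p53 in the falls of Fas and Tnfrsf10b was not tested.

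**Figure D4:**
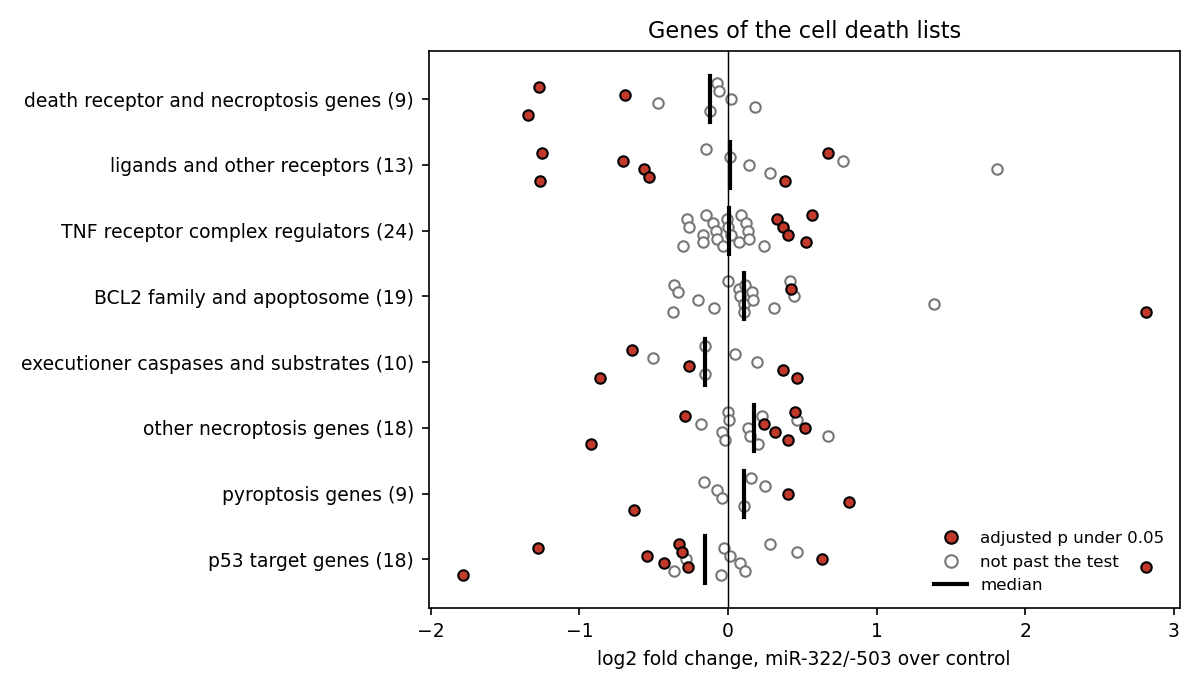
Log2 fold change, miR-322/-503 over control, of each tested gene in 8 cell death lists, with the number tested in brackets. Filled points passed the edgeR test, open points did not, and the vertical bar is the list's median. Medians lie between -0.16 and 0.18, and the fall of Fas and Ripk3 is matched in size by Tnfrsf25 (-1.27), Tnfrsf21 (-1.25), Btg2 (-1.28) and Perp (-1.79).

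The change of each gene was set beside that of its genomic neighbours. The 20 tested genes nearest to Tnfrsf10b, all within 0.552 Mb, had a median log2 fold change of -0.54, close to the -0.69 of Tnfrsf10b itself, and 13 of them fell while the other 7 did not pass the test. Of the 5 tested genes with the nearest start sites, Rhobtb2 (-0.60), R3hcc1 (-0.70) and Loxl2 (-0.59) fell, and Chmp7 (0.01) and Gm27177 (0.73) did not pass the test. These neighbours were named after their values were seen. Tnfrsf10b thus fell together with 13 of these 20 genes, and their part in the result was not tested. The 20 genes nearest to Fas had a median of 0.28, with 9 that rose and 4 that fell. The adjacent Acta2, the smooth muscle actin gene, fell by 1.11 (SE 0.05, edgeR adjusted p = 5.7e-06). For Ripk3 the median of the 20 nearest genes was -0.14, with 5 that fell and 15 that did not pass the test. On one side of it Nfatc4 (-1.18), Nynrin (-2.06) and Sdr39u1 (-0.50) fell, while Cbln3 (0.67) and Khnyn (-0.11), which lie among them, did not pass the test. The 20 genes nearest to Ripk1 had a median of 0.43, with 9 that rose and 11 that did not pass the test, against -0.06 for Ripk1. For Fadd, Casp8, Cflar, Bid and Mlkl the median of the neighbours lay between -0.05 and 0.12.

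**Figure D5:**
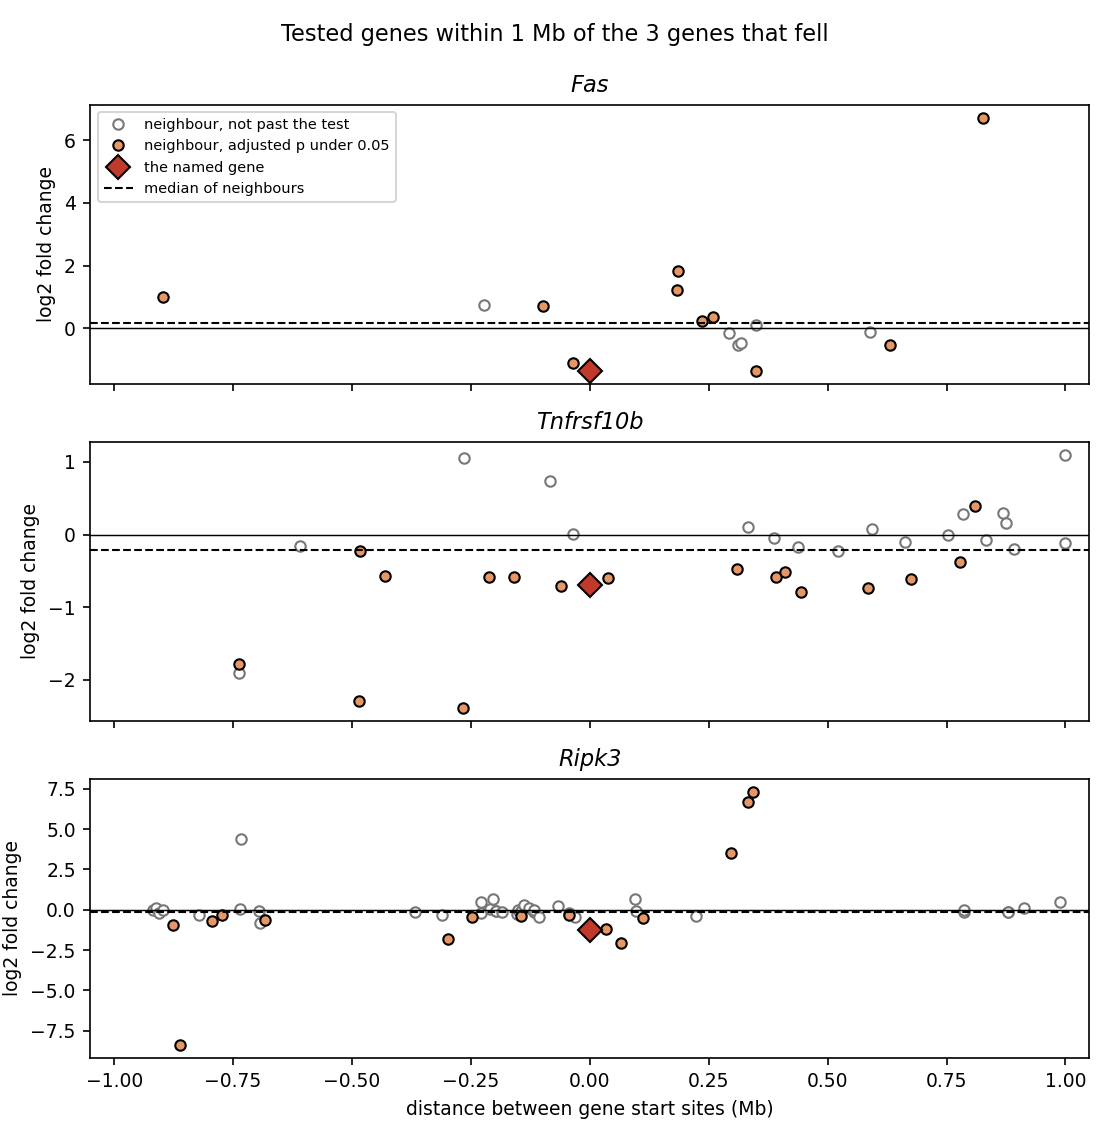
Log2 fold change of the tested genes whose start sites lie within 1 Mb of that of Fas, Tnfrsf10b or Ripk3 (diamonds), against the distance between start sites in Mb. Filled circles passed the edgeR test, the dashed line is the median of the neighbours, and the vertical scales differ. Around Tnfrsf10b 16 of 36 neighbours fell and 1 rose (median -0.21), around Fas 3 of 16 fell and 7 rose (0.17), and around Ripk3 12 of 53 fell and 3 rose (-0.12).

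The genes most like Fas and Ripk3 were found by Pearson's correlation of log2 CPM over the 6 libraries, a description in which genes that are lower with miR-322/-503 and vary little within groups tend to score high. For Fas these were Vdr (r = 0.9999) and Ogfod1 (0.9995), among 1560 tested genes with r above 0.95. For Ripk3 they were Ltbp4 (0.9999) and Rsc1a1 (0.9998), among 1188.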

How the data were processed

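RNA-seq libraries of DM1 myoblasts, 3 with the empty vector and 3 with miR-322/-503, were analysed. According to the methods, the authors trimmed reads with Trim-Galore, aligned them to mouse GRCm38 with Hisat2 and made tables with Stringtie, while versions, annotation and strandedness are not given in the sources used here. The deposited count table gives unnormalized estimated counts of genes, written as whole numbers. For every library the authors also deposited coverage (a per-base signal) with FPKM and TPM values. TPM was used for levels, and coverage to find that about 4 counts stand for 1 read pair. Coverage of low genes peaked at 300 bases, and a count stood for about 75 bases (median 74.98 to 74.99 per library).

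Genes were found by name in the deposited tables and joined by identifier. Of 55421 genes, 55154 identifiers were found in GENCODE M21, which gave positions, exons and 3' UTRs (at least 50 bases). The estimated counts were tested with edgeR 4.0.16 (R 4.3.3; filterByExpr, TMM, glmQLFit, glmQLFTest) over 18140 genes, with p adjusted by Benjamini-Hochberg. The main design kept the study's limits (adjusted p under 0.05, log2 fold change beyond 1). SE is the log2 fold change divided by the square root of F. TMM factors were 0.977 to 1.03. Replicates differed by more than sampling noise (chi-square per degree of freedom 13.5 to 19.5), so none was taken for a copy. On simulated data over 18133 genes, edgeR recovered 100 of 100 genes with a log2 fold change of 1 and 96 of 100 with 0.5, with 4 false calls. The simulation gave every gene the same fixed dispersion and changed only well-counted genes. In the real libraries the SD within groups differed between genes, with a median of 0.174 of log2 CPM and 0.532 for Bid. The simulated recovery is therefore a check of the code and does not give the power of the test on these libraries.

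The members, the lists and the 5 ratios were chosen with earlier results of these data known. Named genes are all members, the ligands Fasl, Tnfsf10 and Tnf, up to 4 genes per list with the largest absolute log2 fold change among those with an adjusted p under 0.05 (2 of these are not reported here), and the 2 genes most correlated with each member past the fold limit. Tnfrsf1a, Zbp1, Cdkn1a, Mdm2, Tnfrsf23, Serpinb6a, Bcl2l13 and the neighbours were named outside this rule after their values were seen. So were the p53 targets Trp53inp1, Sesn1, Sesn2, Phlda3 and Aen. Alternatives were DESeq2 1.42.0, other size factors, other count filters, limma 3.58.1 on log2(TPM + 1), counts per read pair, a replicate block, leaving out each library and, for ratios, counts per merged exon length.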

Additional observations from a re-analysis of the deposited data

How the results depend on the processing

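The falls of Fas, Tnfrsf10b and Ripk3 passed the test in all 15 fits (the edgeR fit and its alternatives), with log2 fold changes of -1.37 to -1.27, -0.74 to -0.63 and -1.41 to -1.03. Casp8, Bid, Ripk1 and Mlkl passed in 0 of 15. Libraries with the same replicate number did not deviate together (only 1 of 3 pairs over 0.1, correlation of deviations 0.131, 0.0687 and 0.0451 for replicates 1, 2 and 3). With the replicate block, Fadd (-0.49, edgeR adjusted p = 0.0262) and Cflar (0.18, adjusted p = 0.0457) passed, so 1 member rose, and with DESeq2 Fadd passed (-0.46, adjusted p = 0.0348). With limma on log2(TPM + 1), 391 genes rose and 564 fell past the fold limit, against 832 and 959, and Casp8 was at 0.025 (adjusted p = 0.898). With DESeq2, 1 of the TNF receptor complex regulators and 2 of the BCL2 family genes fell, against 0 of each. With limma on log2(TPM + 1), 1 gene of the BCL2 list and 1 of the pyroptosis list rose, against 2 of each, and 1 of the other necroptosis genes fell, against 2. Without control replicate 2, Bid was at 0.06 and Mlkl at -0.023, and without miR-322/-503 replicate 3 Bid was at 0.073 and Mlkl at -0.0088. Leaving out each library gave -0.504 to 0.073 for Bid and -0.023 to 0.079 for Mlkl, and adjusted p 0.0548 to 0.148 for Fadd and 0.0718 to 0.249 for Cflar. The cause of these differences was not tested. Bmf, Tab3, Ikbke and Casp12 also did not pass with limma on log2(TPM + 1), nor did Bmf with the block. The number of genes past the test over the whole table was 1792 to 2056 higher and 2217 to 2491 lower when a library was left out. Counts of 3 read pairs or fewer limit Fasl and Tnfsf10 in every library, and Tnf in the control and in miR-322/-503 replicate 3.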

Other observations

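Of the immune markers other than Lyz2, a lysozyme gene of myeloid cells, Csf1r (61, 82 and 41 counts against 67, 34 and 58) and Cd68 (191, 242 and 170 against 295, 287 and 256) did not pass the test, and Ptprc, the pan-leukocyte marker, had 6 counts in 1 miR-322/-503 library and 0 in the others.

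Spread of the kind seen for Bid was also seen for Bcl2l1, which encodes the anti-apoptotic BCL-XL. Its estimated counts were 2422, 886 and 2913 in the control and 3695, 3143 and 1060 with miR-322/-503, and it did not pass the test (log2 fold change 0.31, edgeR adjusted p = 0.708). The low libraries were control replicate 2 and miR-322/-503 replicate 3 for Bcl2l1, and control replicate 1 with miR-322/-503 replicates 1 and 3 for Bid. Bcl2l1 was named after its values were seen.

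Within 0.35 Mb of Ripk3, on the side of Nynrin, the granzyme genes Gzme and Gzmd and the mast cell protease gene Mcpt8 rose with miR-322/-503, with log2 fold changes of 6.66, 7.33 and 3.55 (edgeR adjusted p = 0.000716, 0.00623 and 0.00218). These were the opposite direction to Ripk3, Nfatc4 and Nynrin, and were named after their values were seen.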
